A study of Brassica rapa subsp. pekinensis with 10 samples.

Results

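The first step of a cold treatment in Chinese cabbage (Brassica rapa subsp. pekinensis, a leafy vegetable crop) was examined by setting the 2 arrays labelled cold stress 15 min against the 2 arrays labelled normal. These 4 arrays, of 10 in the series, were taken by their treatment label. The variety names of the normal arrays had looked exchanged in earlier results of these data, and the comparison was laid out for that reason by order over the 4 arrays. The groups were Man-Su normal, Shin-Hong normal, Man-Su cold stress 15 min and Shin-Hong cold stress 15 min, with 1 array each. Man-Su and Shin-Hong are cabbage varieties, and the labels call the normal plants wild type of the variety. The other 6 arrays carried cold for 30, 60 and 120 min in both varieties. Total RNA was labelled with the dye Cy3 and read on 1-colour NimbleGen oligonucleotide arrays. The labels name no tissue, plant age, cold temperature or growth conditions of the normal plants, and do not say whether RNA came from single or pooled plants. No variety had a second array at any treatment, so in each comparison below the 2 samples of a treatment are 1 array of each variety.

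Plants sense a drop in temperature within minutes, through stiffer membranes and a rise of calcium in the cytosol. In Arabidopsis, a close relative, this starts a first wave of transcription that includes the CBF (DREB1) factors, zinc finger and ethylene response factors and calcium-binding proteins. The cold-regulated effector genes, such as the COR genes, which protect cells against freezing, follow that wave after hours. An array taken soon after the start of cold therefore samples the time of the first wave. None of these genes could be read by name here. The features, EST contigs of Brassica rapa, carried an ID alone, the gene information field was empty, and 0 IDs matched the RefSeq gene table of assembly CAAS_Brap_v3.01. At most 2 IDs are therefore printed for each direction, and other features are described by their values.

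Levels are log2 of the deposited RMA intensity, a value summarised over the probes of a feature, 7 for 98.4% of the 47548 features. Median levels of the 4 arrays lay between 12.02 and 12.06. The random-sequence control, which measures signal without a matching transcript, stood at 5.13 in Man-Su normal, 5.25 in Shin-Hong normal, 5.24 in Man-Su cold 15 min and 5.58 in Shin-Hong cold 15 min. Under 1% of the features were below it in any of the 4 arrays, between 0.330% and 0.570%. The 5 barcode controls averaged 7.88 and 8.13 in Man-Su normal and Shin-Hong normal, against 8.27 and 8.93 in Man-Su cold 15 min and Shin-Hong cold 15 min. Whether normal and cold plants, RNA or arrays were handled together is not given, so a difference between these sets of arrays and an effect of cold cannot be told apart.

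The variety names bear on every comparison within a variety. Across features, which are not independent replicates, Shin-Hong cold 15 min correlated at 0.950 with the array labelled Man-Su normal and at 0.899 with that labelled Shin-Hong normal. For Man-Su cold 15 min these values were 0.930 with Man-Su normal and 0.957 with Shin-Hong normal. Each 15 min array was thus nearer to the normal array of the other name. The order of 2 cold against 2 normal arrays does not use the variety names, and it was taken as the first measure of change.

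Each feature was placed by which of its 4 arrays were the brighter pair. Both 15 min arrays were above both normal arrays in 11056 features (23.3%), and both were below them in 8168 (17.2%). Order by treatment therefore took in 40.4% of the features. Another 42.1% were ordered by variety with the names of the normal arrays exchanged. This group held 11442 features with Shin-Hong normal and Man-Su cold as the brighter arrays and 8567 with Man-Su normal and Shin-Hong cold. Order by variety as labelled was the least frequent, with 17.5%. Most margins were small. The median gap between the nearest cold and normal arrays was 0.23 log2 units in the features higher at 15 min and 0.19 in those lower.

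**Figure D1:**
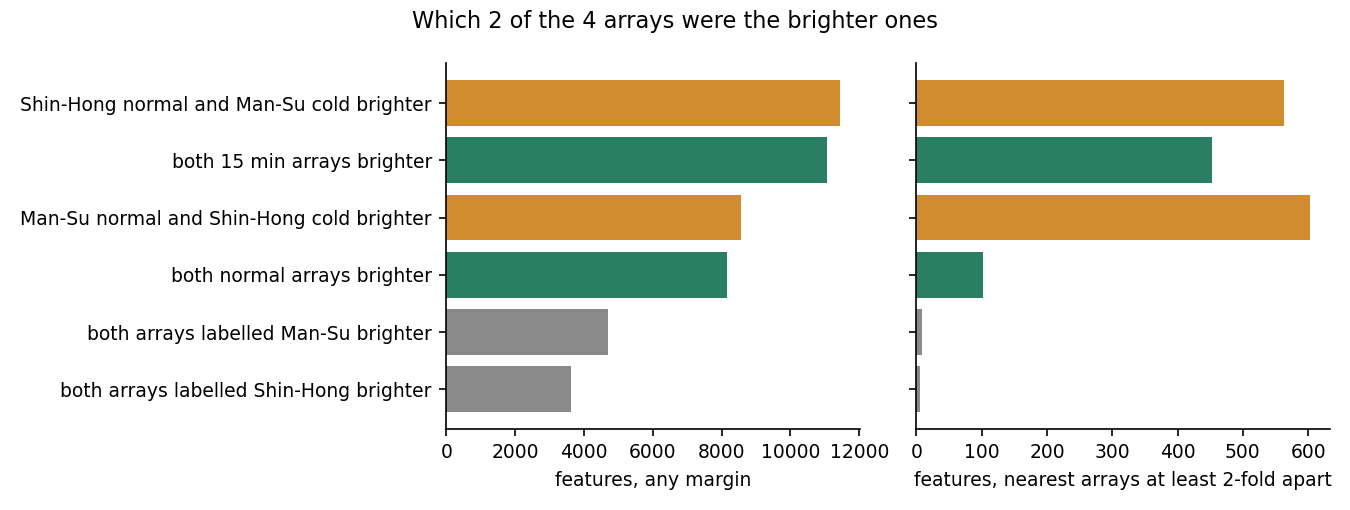
Number of features (x axes) in each of the 6 ways in which a pair of the 4 arrays can be the brighter one, at any margin (left) and with the nearest arrays at least 2-fold apart (right). Green bars are order by treatment, orange bars order by variety with the normal arrays exchanged, and grey bars order by variety as labelled, which held 9 and 6 features at 2-fold.

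The balance between directions depended on the margin and on the scaling. Of the features without overlap, 57.5% were higher at 15 min on the deposited values and 48.4% after quantile normalization, so at small margins neither direction prevailed under both. At a gap of at least 2-fold, 453 features (0.953%) were higher in both 15 min arrays than in both normal arrays, and 102 (0.215%) were lower, which makes 81.6% higher. After quantile normalization there were 368 higher, all among the 453, and 139 lower, which held all but 1 of the 102. At a gap of at least 4-fold, 33 features were higher (0.0694%) and 3 lower (0.00631%). The excess of higher features at these margins held on the deposited and quantile normalized values. It did not hold when each array was set to the mean of its barcode controls, whose role on the array is not stated. That scaling moved the median of all features from 0.03 to -0.57 log2 units (15 min minus normal) and left 80 higher and 896 lower at 2-fold, or 8.20% higher. These counts are descriptions of 4 arrays, since an exact permutation test of 2 against 2 cannot give a two-sided p below 0.333.

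**Figure D2:**
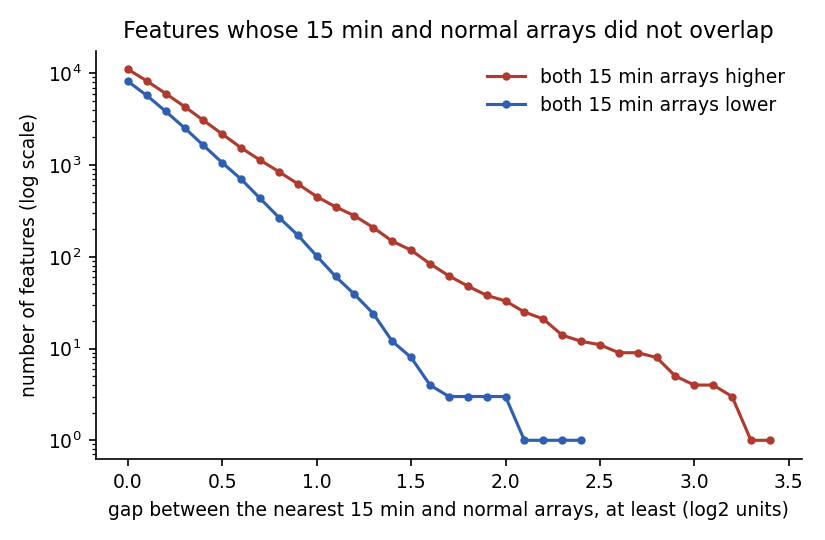
Number of features (log scale) whose 15 min and normal arrays were apart by at least the gap on the x axis, in log2 units of the deposited values. The line for higher features runs above the line for lower ones at every gap and ends beyond 3 log2 units, where the lower features are absent.

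With the variety names as labelled, limma called 1 feature higher at 15 min (0.0021% of those tested) and 0 lower (0%). At an unadjusted p under 0.05 there were 4484 higher and 2554 lower. With the names of the normal arrays exchanged the same changes gave 1074 higher (2.26%) and 298 lower (0.627%). The change of a feature is the same in both fits, and the names act on its standard error. The 1074 had a median change of 1.35 log2 units. Of them, 1037 were without overlap between the arrays and 398 were at least 2-fold apart, against 23.3% and 0.953% of all features. The 298 had a median change of -1.13. Of them, 288 were without overlap and 78 at least 2-fold apart, against 17.2% and 0.215% of all features. The change and the overlap come from the same arrays, so neither is separate support for the other. Leaving out the array Shin-Hong cold 15 min took the exchanged count to 0, and leaving out Man-Su cold 15 min to 21. The fits assume that the varieties responded alike.

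Brapa_ESTC025362 had the widest gap and was the feature called with the names as labelled. Its level was 9.77 in Man-Su normal, 9.57 in Shin-Hong normal, 13.21 in Man-Su cold 15 min and 13.18 in Shin-Hong cold 15 min. The 2 cold arrays were 0.03 log2 units apart and the 2 normal arrays 0.20, while the nearest cold and normal arrays were 3.41 apart. The rise was 3.53 ± 0.20 log2 units (SE), or 11.5-fold, with a limma adjusted p of 0.0349 as labelled and 0.00323 with the names exchanged. Whichever normal array was set against whichever cold array, the difference lay between 3.41 and 3.64. The call as labelled was lost when any 1 of the 8 cold arrays was left out (limma adjusted p 0.162 to 0.746), while the rise stayed at 3.52 to 3.53 log2 units. The level stayed far above both normal arrays over the rest of the series. It was 13.46 and 13.24 at 30 min and 12.73 and 13.02 at 120 min, in Man-Su and Shin-Hong. Most of the distance from normal was thus already present in the earliest cold arrays.

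Brapa_ESTC011749 had the next widest gap. It stood at 9.17 in Man-Su normal, 9.69 in Shin-Hong normal, 12.93 in Man-Su cold 15 min and 13.11 in Shin-Hong cold 15 min, so both cold arrays were far above both normal arrays. The difference was 3.59 ± 0.35 log2 units (SE), or 12.04-fold, with a limma adjusted p of 0.0519 as labelled, which missed the threshold, and 0.00978 with the names exchanged. Its level fell further late in the series than that of the feature above. At 120 min it was 11.15 in Man-Su and 11.97 in Shin-Hong, still above both normal arrays.

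Among the features lower at 15 min, Brapa_ESTC002062 had the widest gap. Its level was 9.96 in Man-Su normal and 10.06 in Shin-Hong normal, against 7.52 in Man-Su cold 15 min and 7.04 in Shin-Hong cold 15 min. The difference was -2.73 ± 0.87 log2 units (SE), or 6.63-fold lower, and limma adjusted p was 0.242 as labelled and 0.0991 with the names exchanged. The groups did not overlap, but neither fit called the feature. Its later levels parted by variety. Man-Su stood at 8.27, 7.93 and 10.01 at 30, 60 and 120 min, the last within 0.1 log2 units of the normal arrays, whereas Shin-Hong stood at 6.96, 7.34 and 6.15.

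Brapa_ESTC023439 followed a similar course. It stood at 11.69 in Man-Su normal, 11.96 in Shin-Hong normal, 9.68 in Man-Su cold 15 min and 9.43 in Shin-Hong cold 15 min. The difference was -2.27 ± 0.75 log2 units (SE), or 4.83-fold lower, with a limma adjusted p of 0.253 as labelled and 0.0942 exchanged. At 120 min Man-Su stood at 12.29, above both normal arrays, and Shin-Hong at 9.12. The spread behind these standard errors comes from all 10 arrays, the 120 min pair included. Whether the varieties differed in this at 120 min was not tested, as each had 1 array there.

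**Figure D3:**
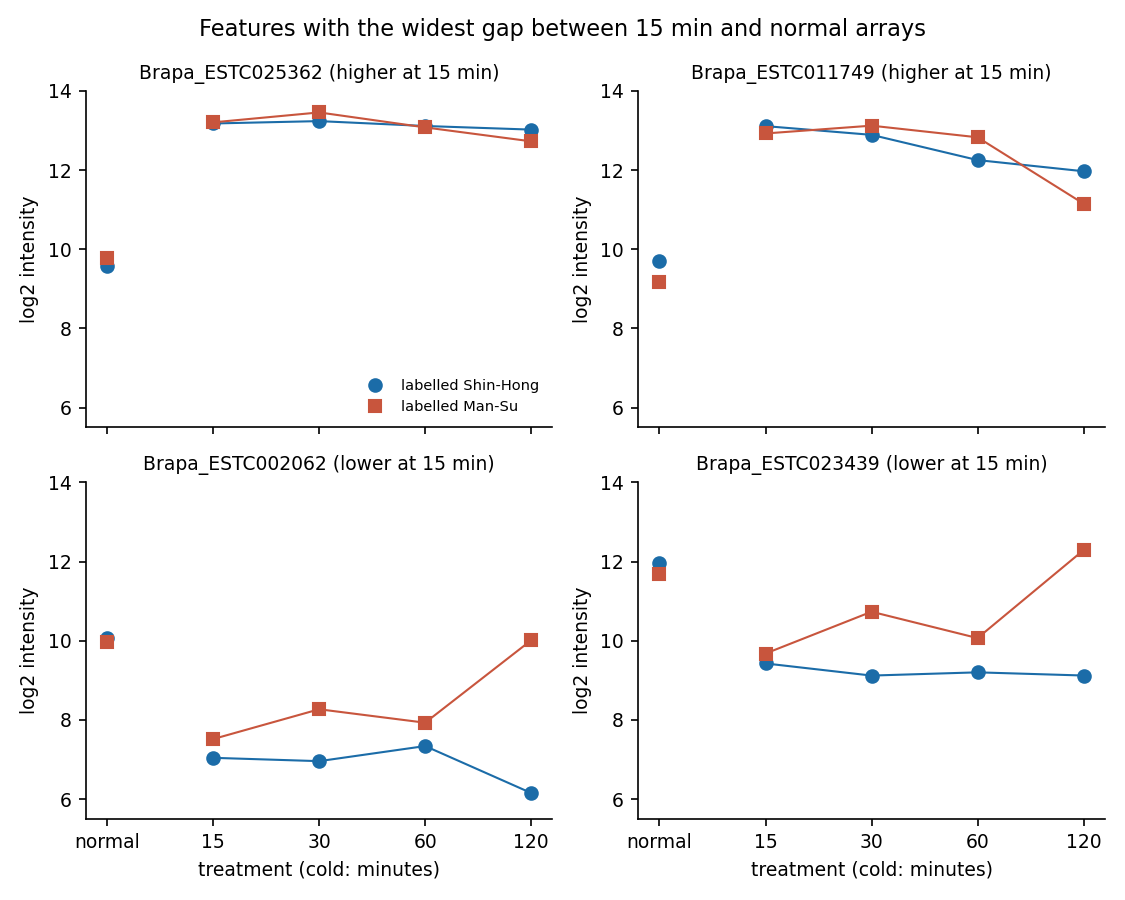
Level (log2 intensity) of the 4 features in each of the 10 arrays, by treatment on the x axis, with circles for arrays labelled Shin-Hong and squares for those labelled Man-Su. At 15 min both varieties lie close together and away from both normal arrays, and in the lower panels the Man-Su arrays at 120 min are back near or above the normal level while the Shin-Hong arrays are not.

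The 8 features next in rank among the higher ones had gaps of 2.54 to 3.22 log2 units. Their levels were 6.56 to 10.19 in the normal arrays and 9.84 to 14.19 in the 15 min arrays. The differences ran from 2.79 to 3.83 log2 units, or 6.90-fold to 14.2-fold. As labelled none of the 8 was called (limma adjusted p 0.0519 to 0.0822). With the names exchanged all 8 were called (limma adjusted p 0.00726 to 0.0128), against 2.89% of all features. The 8 were picked for their gap in arrays that the fits also use, so the calls are no separate support. In 6 of the 8 Shin-Hong cold 15 min was above Man-Su cold 15 min, by up to 1.03 log2 units over the 8 in either direction.

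The 8 features next in rank among the lower ones had smaller gaps, from 1.43 to 2.004 log2 units. They were bright to start with, at 11.07 to 13.73 in the normal arrays, and stood at 9.62 to 12.10 at 15 min. Differences ran from -2.06 to -1.51 log2 units, or 2.85-fold to 4.18-fold lower. The spread within a treatment was at most 0.58 log2 units between the cold arrays and at most 0.31 between the normal arrays. No call was made as labelled (limma adjusted p 0.0806 to 0.201). With the names exchanged 6 of the 8 were called, against 2.89% of all features (limma adjusted p over all 8 from 0.0154 to 0.0572). Choice for a wide gap favours high normal levels, a narrow spread and calls, so these values are descriptive.

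The 2-fold sets differed in where they started. The 453 higher features had a median level of 10.13 in the normal arrays, with quartiles of 9.15 and 11.05, against 12.01 for all features. In 90.7% of them the normal level was below the median of all features. At 15 min their median was 12.01, so they came up to the level of a typical feature. The 102 lower features had a median of 12.38 in the normal arrays, with 33.3% of them below the median of all features, and stood at 10.96 at 15 min. The median change was 1.70 log2 units (3.24-fold) in the higher set and -1.41 (2.66-fold lower) in the lower set, where the 2-fold gap sets a minimum. These features were picked for their gap, so the sizes are descriptive. So are the starting levels, since normal values below the cold values favour dim features and normal values above them favour bright features.

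Near the 2-fold limit the values were continuous. The last feature inside had a gap of 1.0006 log2 units and the first outside 0.9995 among the higher ones, and 103 higher features lay within 0.1 above the limit and 170 within 0.1 below it. In the lower set 41 lay just above and 70 just below.

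The arrays of a treatment lay closer together in the lower set than in the higher one. Choice for the gap favours a small distance within a treatment, so these values are descriptive. The median distance between the 2 cold arrays was 0.35 log2 units in the 453 features and 0.21 in the 102, compared with 0.38 over all features. Both the cold pair and the normal pair agreed to within 0.5 log2 units in 227 of the 453 (50.1%) and in 80 of the 102 (78.4%), against 47.6% of all features. Shin-Hong cold 15 min was the brighter cold array in 265 of the 453, in 52 of the 102 and in 21872 of all 47548 features. A difference of at least 2-fold between the cold arrays was seen in 54 higher features, 2 lower ones and 7028 of all features. Both normal arrays were below the random-sequence control in 1 of the 453 features, and both cold arrays in 0 of the 102. Over all features these counts were 112 and 118, so features dim on a whole side were rare throughout. For the 1 such feature of the 453 the fold is a bound.

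Brightness was related to the share of features without overlap, with a different course in each direction. By deciles of the mean level over the 10 arrays, the share higher in both 15 min arrays was 13.1% in the dimmest decile and 32.0% in the brightest. The share lower in both was 10.9% in the dimmest decile, 22.1% in decile 6 and 14.4% in the brightest. The share at least 2-fold higher was greatest in the middle, with 1.56% in decile 4, and was 0.568% in the dimmest and 0.105% in the brightest. In the brightest decile the median change of all features was 0.09 log2 units, above the 0.03 over all features. In the dimmest decile Shin-Hong cold 15 min was -0.31 from Shin-Hong normal and Man-Su cold 15 min 0.24 from Man-Su normal, and with the names exchanged these medians were -0.22 and 0.16. These are medians over the decile, in which 621 features were higher in both 15 min arrays and 517 lower in both.

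Change within a variety gave different pictures under the 2 sets of names. With the names as labelled, the change in Shin-Hong and the change in Man-Su correlated at -0.22 across the 47548 features (Spearman -0.09), and 615 features were at least 2-fold up and 157 at least 2-fold down in both. With the names of the normal arrays exchanged the correlation was 0.43 (Spearman 0.39), with 922 up and 203 down in both. The paired changes share no array, and features are not replicates. Opposite changes of at least 2-fold in the varieties numbered 1585 as labelled and 64 exchanged. The SD of the change over features fell from 0.88 to 0.62 in Shin-Hong and from 0.72 to 0.57 in Man-Su with the exchange. The sample titles carry the letter C second for Man-Su normal and for the Shin-Hong cold arrays. They carry R second for Shin-Hong normal and for the Man-Su cold arrays. What these letters stand for is not given, and which set of names is right was not tested.

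**Figure D4:**
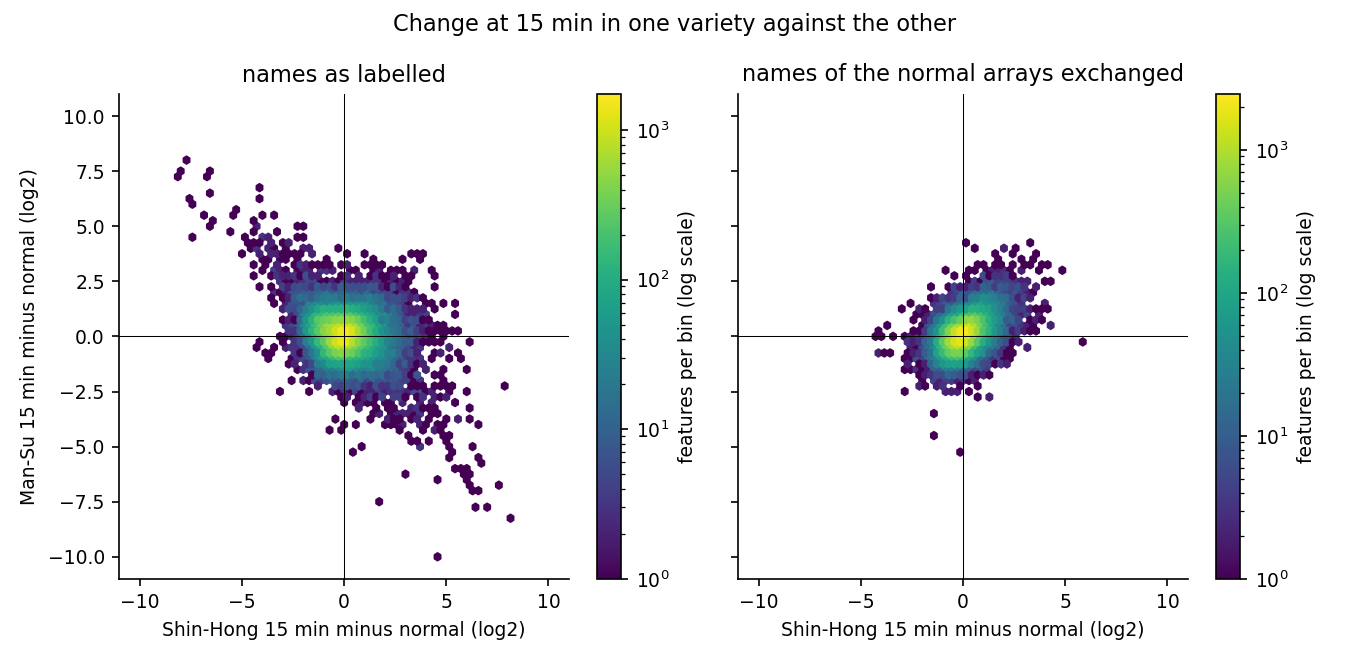
Change at 15 min (log2 units) in Man-Su against that in Shin-Hong for 47548 features, with the variety names as labelled (left) and with those of the normal arrays exchanged (right); colour is the number of features per bin on a log scale. The cloud leans along the falling diagonal on the left (r = -0.22) and along the rising one on the right (r = 0.43).

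Some features set 1 array apart from the other 3. Shin-Hong cold 15 min was at least 2-fold above all others in 894 features and at least 2-fold below them in 606. For Man-Su cold 15 min these counts were 222 and 226. Among the normal arrays Shin-Hong normal was below the other 3 in 611 features and above them in 102, and Man-Su normal was below in 210 and above in 129. Changes seen in 1 cold array alone were thus more frequent in Shin-Hong, the array with the highest barcode controls of the 4 (8.93). The part of the control level in those counts was not tested.

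The later arrays show what became of the early differences. The normal arrays are the same in each comparison, so the times are given side by side. The median of the 453 higher features stood at 1.70 log2 units from normal at 15 min, 1.72 at 30 min, 1.43 at 60 min and 1.48 at 120 min. For the 33 with a 4-fold gap the medians were 2.64, 2.69, 2.16 and 2.13. The 102 lower features stood at -1.41, -1.26, -1.19 and -1.21. Over all features the medians were between 0.02 and 0.03. Choice at 15 min favours an extreme at that time, yet the highest cold mean fell at 30 min in 192 of the 453 (42.4%), at 15 min in 145 (32.0%), at 120 min in 98 and at 60 min in 18. Of all features the highest cold mean fell at 15, 30, 60 and 120 min in 21.7%, 22.2%, 22.0% and 34.1%. In the lower set the lowest cold mean fell at 15 min in 57 of the 102 (55.9%), against 20.3% of all features. The median level of the lower set in Man-Su and Shin-Hong was 10.996 and 10.979 at 15 min, 11.35 and 11.02 at 30 min, 11.18 and 11.31 at 60 min and 11.52 and 11.16 at 120 min, so the order of the varieties was not the same at each time.

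**Figure D5:**
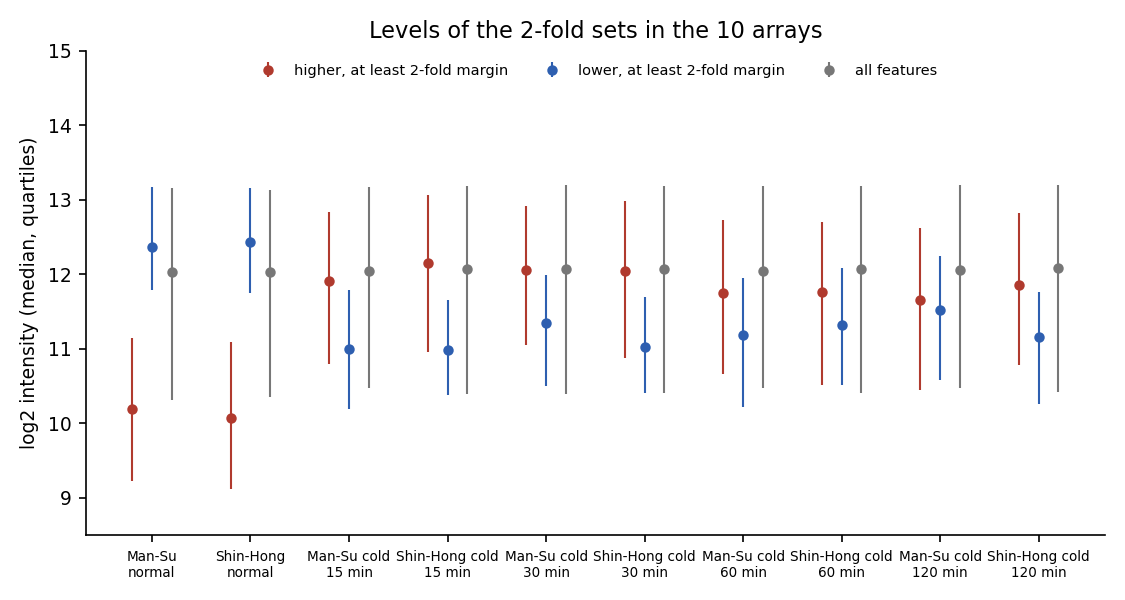
Median level (points) with quartiles (bars), in log2 intensity, of the 453 higher features, the 102 lower features and all features in the 10 arrays. The higher set moves from 10.19 and 10.07 in the normal arrays to 11.90 and 12.15 in the 15 min arrays, and all cold arrays stay above the normal ones, while the grey points for all features stay level.

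The step from normal to 15 min was wider than any step between successive cold times in these arrays. Both arrays of the later time were at least 2-fold above both of the earlier one in 453 features from normal to 15 min, 16 from 15 to 30 min, 1 from 30 to 60 min and 46 from 60 to 120 min. At least 2-fold below were 102, 0, 3 and 35. After quantile normalization the counts above were 368, 19, 1 and 45 and those below were 139, 0, 4 and 32. Successive steps share arrays, and no test was made between them. Only the first step compares cold with normal arrays, where the handling of the arrays is not known.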

How the data were processed

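The deposited files give 1 linear RMA intensity for each feature and array, made by the authors with RMA (background correction, normalization between arrays and summary over probes), per the submitters' processing notes. The notes give neither the software and its version nor whether arrays were normalized jointly. Controls (6 features) were left out. Intensities were taken to log2 with no filter, and features were ordered over the 4 arrays. The fit used limma 3.58.1 (lmFit, then eBayes; R 4.3.3) on 10 arrays, with treatment and variety as terms, 4 residual degrees of freedom and Benjamini-Hochberg adjustment over 47548 features (threshold 0.05). Nothing in the labels shows that arrays came from separate plants, so the spread may be partly technical. The script was tested on simulated data. Named features had the widest gap after raising each array to its random-sequence control. Members, lists and rules were chosen with earlier results of these data known. The gene lists drawn up (early cold factors, calcium, COR, clock, photosynthesis, heat shock, jasmonate) could not be read without names. The number of arrays limits precision. Alternatives changed normalization, dim signal, variety names and arrays.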

Additional observations from a re-analysis of the deposited data

Results flagged for a closer look

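The barcode controls, which are no features of the comparison, averaged 8.93 log2 units in Shin-Hong cold 15 min and 8.27 in Man-Su cold 15 min, above the 7.88 and 8.13 of the normal arrays. Of the 5 controls 3 were higher in both 15 min arrays than in both normal arrays.

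With the variety names as labelled, 1585 features were at least 2-fold up in one variety and at least 2-fold down in the other at 15 min, from 1 array per variety and treatment. This difference between the varieties was not tested, and with the names of the normal arrays exchanged the number was 64.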

How the results depend on the processing

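The variety term pairs the arrays of a variety, and no replicate number pairs them further, as each group has 1 array. The count of called features, 1 as labelled, was also 1 after quantile normalization, without the variety term and on the series-wide table. It was 33 among features above the random-sequence control, 31 with values raised to it, and 1372 with the names exchanged. In the 4 arrays alone limma made 0 calls (3878 at an unadjusted p under 0.05). Leaving out 1 array gave 0 to 4930 over both sets of names. As labelled it was 0 without any 1 of the 8 cold arrays (2710 to 6412 at an unadjusted p under 0.05), 4930 without Man-Su normal and 1408 without Shin-Hong normal. A fit without a normal array sets the cold arrays against the other one alone, so it carries the names in doubt. With the names exchanged it was 0 to 21 without a 15 min array, 371 to 1152 without a later cold array (1033 without either 30 min array) and 97 to 111 without a normal array.

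Other alternatives were chosen after seeing the data. The names exchanged with quantile normalization gave 1447 called. A term for the barcode controls gave 0 as labelled (3384 at an unadjusted p under 0.05) and 32 exchanged. Without Man-Su cold 30 min and Shin-Hong cold 120 min limma called 0 as labelled (4244 at an unadjusted p under 0.05) and 884 exchanged. With the barcode level subtracted, 1242 features were higher and 21175 lower without overlap, 80 and 896 at 2-fold, and 7 and 11 at 4-fold. The cause was not tested. The other planned scalings kept the counts without overlap within 1.5 times. Brapa_ESTC025362 was called in 20 of 32 alternatives, with a change of 3.31 to 3.64 log2 units (limma adjusted p 0.00236 to 0.746). The changes of Brapa_ESTC011749 (3.23 to 3.88), Brapa_ESTC002062 (-3.56 to -1.82) and Brapa_ESTC023439 (-3.15 to -1.40) kept their direction in all 32. These features were picked for a wide gap, so a reversal was unlikely from the start. The 32 are not all distinct, since leaving out either variety at a later cold time gave the same result.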
